A study of Hordeum vulgare with 6 samples.

Results

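The regions described here are the stretches of barley chromosome 4H that carried an H3K27me3 peak in all 3 replicates of a ChIP-seq experiment on endosperm. They were chosen by peak position: overlapping or abutting peaks of the 3 lists were joined, and a joined region was kept when each list had a peak in it. This gave 390 regions on 4H, of 3359 such regions in the series and 3237 on the 7 chromosomes; the others lay on unplaced sequence. Because peak positions chose the regions, and because 4H was picked with its low coverage already known, the values below are descriptions and no test was made of them.

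The tissue was endosperm dissected 16 days after pollination from Hordeum vulgare cultivar Morex, a six-rowed spring barley grown in long days. All libraries share this genotype, tissue and stage: 3 H3K27me3 ChIP libraries and 3 input libraries, with no treatment and no second genotype. Peaks had been called on each ChIP library separately, and no separate values of the input libraries enter the results. Whether the replicates were separate tissue samples is not stated, so an SD over the 3 lists may hold technical variation alone.

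H3K27me3 is trimethylation of a lysine on the tail of histone H3. Polycomb repressive complex 2 deposits it, and in plants it marks genes that are held silent in a tissue or at a stage, among them many developmental regulators. The endosperm is the tissue that nourishes the embryo and, in cereals, fills with starch. Barley chromosomes are large, with most genes toward both ends and a long, repeat-rich interior that recombines little. The coordinates of barley chromosomes by convention begin at the tip of the short arm. As the genome build of the lists and the position of the centromere are not given in the sources used here, the ends are called first and last, and the span is cut at its midpoint rather than into arms.

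The lists held 4273, 5593 and 5815 peaks for replicates 1, 2 and 3, of which 494, 716 and 697 were on 4H. Peak lists carry no reads, so the depth of each library is unknown. Replicate 1 had the fewest peaks, and of the 180 regions of 4H with a peak in exactly 2 lists, 129 were missing from it. Base by base, the 4H peaks of replicates 1 and 2 had a Jaccard index (shared length over the length covered by either) of 0.712. Replicate 3 had an index of 0.700 with replicate 1 and of 0.739 with replicate 2.

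The 390 regions covered 13.1 Mb, or 2.14% of the 4H span of 610.3 Mb, measured up to the last peak. The other 6 chromosomes together were covered to 4.08%, so that 4H had 0.525 times their coverage. Taken list by list, peaks covered 1.90% of 4H in replicate 1, 2.26% in replicate 2 and 2.29% in replicate 3. On the other 6 chromosomes the same lists covered 3.67%, 4.10% and 4.17%. The ratio of 4H to the others was thus 0.539 ± 0.019 (SD, n = 3), and the 3 values on 4H all lay below the 3 values elsewhere. 4H had the lowest covered share of the 7 chromosomes in each list.

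Both the number and the width of the regions were low on 4H. Coverage is the product of the number of regions per Mb and their mean width, so the ratio splits into these factors. 4H held 0.639 regions per Mb against 0.794 on the other chromosomes, a ratio of 0.805. Its regions were 33.5 kb wide on average against 51.4 kb, a ratio of 0.652. On a log scale the width factor made up 66.3% of the coverage deficit and the number made up the rest. From the peaks of each list by itself, the width factor was 0.640 ± 0.024 and the number factor 0.843 ± 0.047 (SD, n = 3 each), with a width share of 67.3%, 81.5% and 68.6% in replicates 1, 2 and 3. In each list 4H ranked lowest of the 7 chromosomes in peaks per Mb, in mean peak width and in median peak width. The order of the factors depended on the calling threshold. When only peaks with a fold of at least 3 were used, the width share was 38.2%, and with a −log10 q of at least 5 it was 44.5%.

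**Figure D1:**
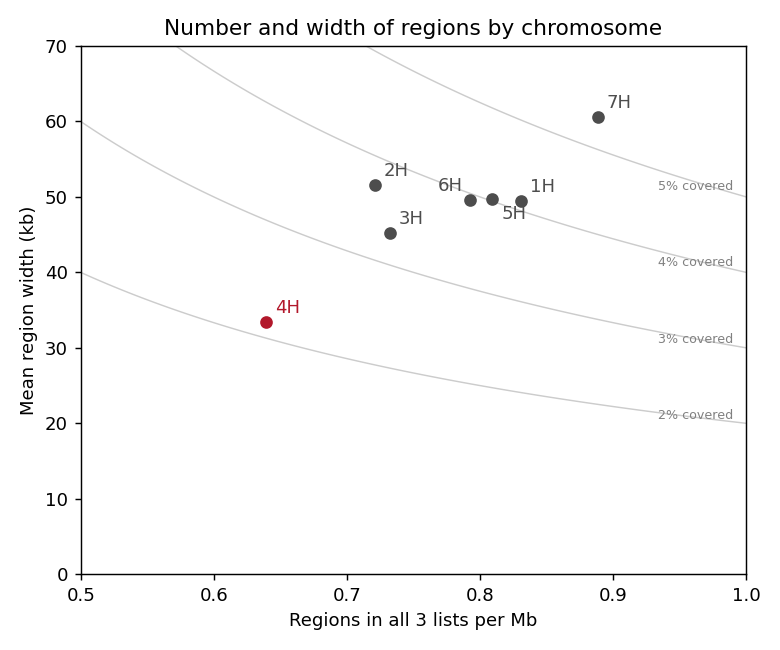
Regions in all 3 lists per Mb (x axis) against their mean width in kb (y axis), 1 point per chromosome, with curves of equal covered share. 4H, in red, lies at 0.639 regions per Mb and 33.5 kb, lowest on both axes, and 7H lies at 0.888 regions per Mb and 60.5 kb.

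The median region was less affected than the mean. The median width was 12.4 kb on 4H and 15.7 kb on the other chromosomes, where single chromosomes ranged from 14.7 kb on 6H to 16.6 kb on 7H. The widest 10% began at 72.9 kb on 4H and at 111 kb elsewhere. The widest region of 4H spanned 518 kb, and none reached 1 Mb, whereas the other chromosomes held 8 regions of 1 Mb or more with a maximum of 3157 kb on 5H. 3H also had no region of 1 Mb or more.

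By width class, regions under 10 kb were at least as dense on 4H as elsewhere and wider ones were sparser. Per 100 Mb, regions under 5 kb numbered 2.95 on 4H and 2.48 on the other chromosomes, and regions of 5 to 10 kb numbered 20.2 and 20.0. The ratio of densities was 0.852 for regions of 10 to 20 kb, 0.701 for 20 to 40 kb and 0.674 for 40 to 80 kb. It was 0.496 for 80 to 160 kb, 0.534 for 160 to 320 kb and 0.458 for 320 kb or more, the last class resting on 6 regions of 4H.

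Regions of 80 kb or more therefore carry most of the missing length. There were 35 of them on 4H, or 8.97% of its regions, against 411, or 14.4%, on the other 6 chromosomes. At the rate of the other chromosomes a span as long as 4H would hold 24.9 Mb of regions, 11.8 Mb more than was found. Of this shortfall, 9.76 Mb (82.5%) was in regions of 80 kb or more. Such regions held 66.0% of the region length on the other 6 chromosomes, so most of that share would be met by an even thinning of all widths. In numbers, 4H was short of 94.6 regions, of which 59.6 (63.0%) were narrower than 80 kb and 37.0% were wider. Wide regions thus had a larger share of this shortfall than their 14.4% of the regions elsewhere. Their density ratio was 0.500, against 0.856 for regions under 80 kb. With regions of 80 kb or more left out on every chromosome, the coverage ratio was 0.755. The peaks of a single list added up to at least 80 kb in all 3 lists for 31 of the 35 wide regions (88.6%), so the width of most did not come from merging the lists. On the other 6 chromosomes this held for 344 of 411 (83.7%).

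**Figure D2:**
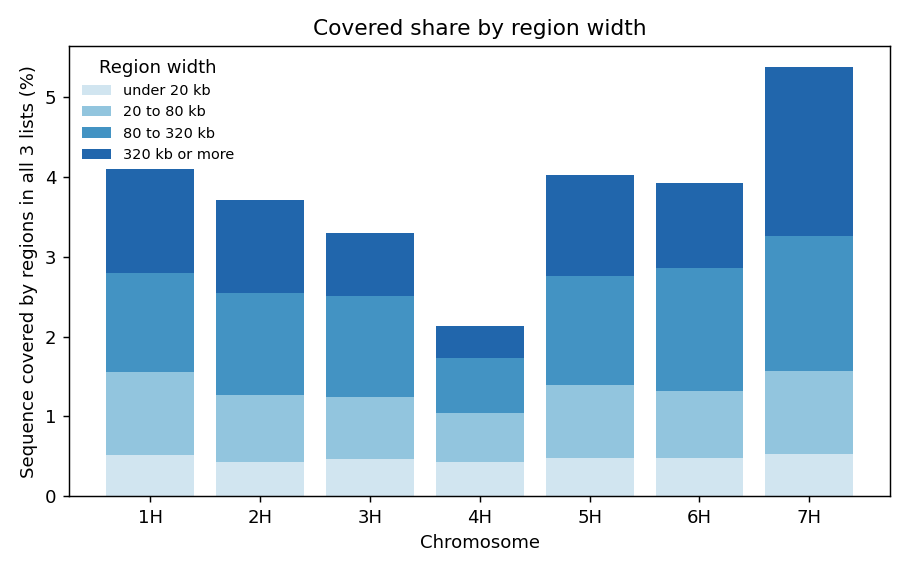
Share of each chromosome (y axis, %) covered by regions in all 3 lists, stacked by region width, for the 7 chromosomes (x axis). In every width class the part is the smallest of the 7 on 4H. From regions under 20 kb it is 0.429% on 4H and between 0.432% and 0.531% on the others. From regions of 20 to 80 kb it is 0.619% on 4H and at least 0.779% on the others.

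The number of regions was also set against the number of genes. The RefSeq table of the MorexV3 assembly places 3633 protein-coding genes on 4H, the fewest of the 7 chromosomes, which have up to 5167. Only this count per chromosome was used, since the build of the lists is not named. Per 1000 such genes, 4H had 107 regions and the other 6 chromosomes 105, with single chromosomes from 92.9 on 2H to 121 on 6H. The covered length per gene was 3594 bp on 4H and 5416 bp on the other chromosomes, where the lowest was 4296 bp on 3H. Measured per gene, 4H was thus within the range of the others in the number of regions and below it in covered length.

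Along 4H, coverage was concentrated at both ends. In fixed windows of 10 Mb from coordinate 0, every one of the 61 full windows contained the midpoint of at least 2 regions, with a median of 5 and a maximum of 37. The covered share of a window, as the mean of the 3 lists, ran from 0.312% to 11.3%, with a median of 1.31%. It was below 1% in 26 windows (42.6%), against 24.7% of the 356 full windows of the other chromosomes. It was 5% or more in 4 windows (6.56%) of 4H and in 19.7% of the windows elsewhere, where the highest reached 37.6%. Replicate 1 gave the lowest share in 48 of the 61 windows.

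The 5 most covered windows were these. The window from 570 to 580 Mb was covered to 10.3%, 12.0% and 11.6% in replicates 1, 2 and 3, and held 13 regions. The window from 600 to 610 Mb was covered to 11.0%, 11.3% and 10.7%, with 29 regions. The window from 0 to 10 Mb was covered to 8.51%, 10.8% and 13.4%, with 37 regions. In both late windows the lists lay close together, whereas in the first window the highest list had over 1.5 times the share of the lowest. The window from 30 to 40 Mb reached 4.33%, 4.64% and 6.74% with 10 regions, and that from 290 to 300 Mb reached 4.79%, 4.69% and 4.16% with 8. The first 3 of these windows together held 79 regions, or 20.3% of all, and 26.3% of the region length of 4H. Beyond the last full window, the final 0.331 Mb of the span was covered to 74.0% ± 1.2 (SD, n = 3).

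These windows differed in make-up. Only 1 of the 37 regions between 0 and 10 Mb was 80 kb or wider, and the highest mean fold there was 6.75. Between 570 and 580 Mb, 3 of 13 regions were that wide and the highest mean fold was 37.4. Between 600 and 610 Mb, 3 of 29 regions were that wide and the highest mean fold was 14.5.

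Between 20 and 570 Mb, 8 of the 55 windows were covered to 3% or more, and in most of them 1 region supplied much of the length. A region of 356 kb from 258574445 to 258930082 made up 87.7% of the region length of its window, and a region of 371 kb from 234301510 to 234672902 made up 78.5%. In the window from 560 to 570 Mb a region of 213 kb made up 67.1%. The median window in this interior was covered to 1.09%.

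**Figure D3:**
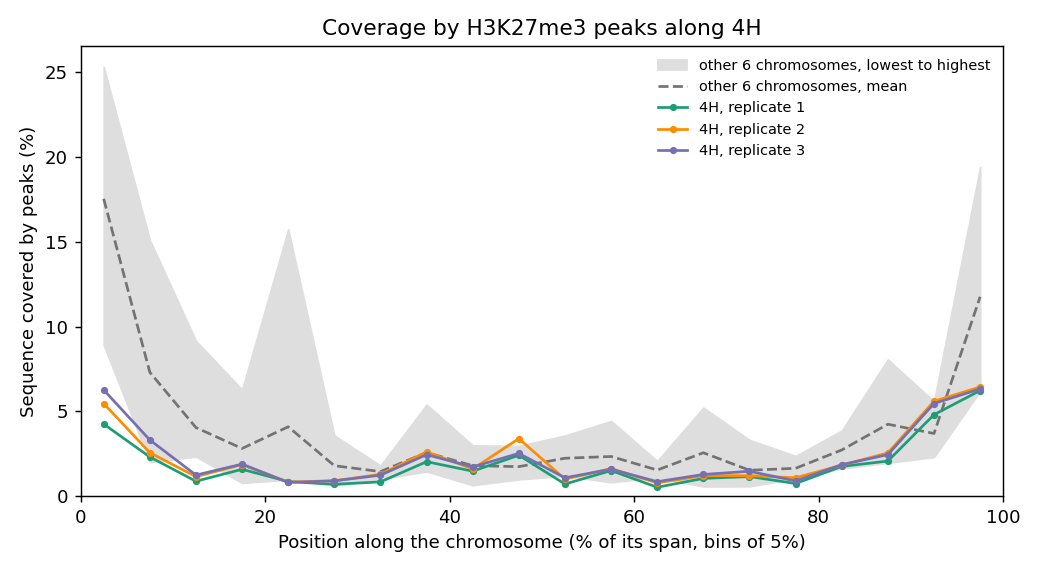
Share of sequence covered by peaks (y axis, %) in bins of 5% of the chromosome span (x axis) for 4H in each replicate, with the mean and the range of the other 6 chromosomes, each averaged over the lists. The 4H lines rise at both ends, and in the first bin they stay below the range of the other chromosomes.

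Between the first and the last 50% of its span 4H was nearly even, and the larger side depended on whether regions or bases were counted. The first 50% of the span held 203 of the 390 regions but 47.0% of the region length, and in the lists 45.8%, 48.2% and 49.0% of the peak length. Among the other chromosomes this share of length ran from 40.4% on 3H to 67.1% on 1H. With regions of 80 kb or more left out everywhere, 56.6% of the 4H length was in the first 50%. Of the 35 wide regions, 15 were in the first 50% of the span and 20 in the last.

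The ends differed more clearly. Peaks covered 3.29%, 4.02% and 4.80% of the first 10% of 4H in replicates 1, 2 and 3. They covered 5.52%, 6.03% and 5.90% of the last 10%. The lists did not overlap between the ends, and the first end had 0.595, 0.667 and 0.813 times the coverage of the last. Of the other 6 chromosomes, 5 had more coverage at their first end than at their last, with 7H at 1.39 ± 0.031 times and 1H at 4.31 ± 0.20 times (SD, n = 3 each) as the extremes. The exception was 3H, with 0.497 ± 0.013 (SD, n = 3). With regions of 80 kb or more left out, the order of the ends on 4H turned over, and the first end had 1.41 times the coverage of the last.

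The first end is where 4H departed most from the other chromosomes. Its regions covered 3.96% of the first 10% of the span, against 12.7% on the others pooled and at least 6.15% on each of them. The first 10% of 4H held 89 regions, or 1.46 per Mb against 1.72, so the number was 0.846 times that of the others. The mean width there was 27.2 kb against 73.6 kb, or 0.369 times, and 5 of the 89 regions were 80 kb or wider against 141 of 618. In each list 4H had the lowest coverage of the 7 chromosomes at this end. The first 10% of the span accounted for 45.1% of the shortfall of 11.8 Mb, and the first 50% for 66.5%. Region length on the other 6 chromosomes was itself weighted to this side. Of their 146 Mb, 45.5 Mb lay in the first 10% and 82.3 Mb in the first 50%.

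The last end was within the range of the others. Regions covered 6.09% of the last 10% of 4H against 8.13% on the others pooled, with single chromosomes from 4.55% on 1H to 12.6% on 3H. Here the number was 0.847 times and the mean width 0.885 times that of the others. In between, from 10% to 90% of the span, the coverage ratio was 0.568, with 0.775 for the number and 0.733 for the width. This ratio was uneven. From 10% to 25% of the span it was 0.335, close to the 0.312 of the first 10%. It was 0.707 from 25% to 75% and 0.547 from 75% to 90%. The low coverage of 4H was thus present outside the ends as well.

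**Figure D4:**
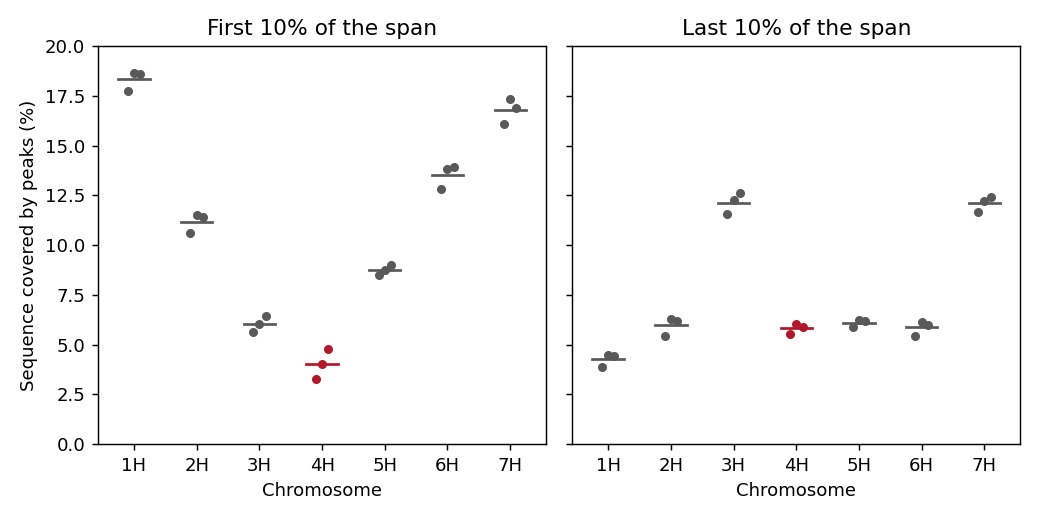
Share of the first 10% (left) and the last 10% (right) of each chromosome covered by peaks (y axis, %), with 1 point per replicate and a bar at the mean. 4H, in red, is lowest at the first end with 3.29% to 4.80%, and at the last end its 5.52% to 6.03% lies among 2H, 5H and 6H.

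The 5 regions of 80 kb or more in the first 10% of 4H were chosen for naming after their values were seen. The widest spanned 169 kb from 32861991 to 33031391, with folds of 7.69, 5.99 and 4.69 in replicates 1, 2 and 3. Next came 118 kb from 54091488 to 54209308, with folds of 5.32, 4.81 and 4.39. The region of 116 kb from 39614164 to 39729822 was wide in 1 list only: its peaks summed to 9.41 kb in replicate 1, 14.2 kb in replicate 2 and 116 kb in replicate 3. The remaining 2 spanned 111 kb from 31714123 to 31824863 and 92.4 kb from 8389551 to 8481950. None of the 5 had a mean fold above 6.75.

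The fold of a region is the authors' value for its highest peak in a list, read as the enrichment over the peak caller's background. Replicates 1, 2 and 3 gave a median over the 390 regions of 2.68, 2.52 and 2.66, or 2.62 ± 0.082 (SD, n = 3). On the other 6 chromosomes it was 2.79, 2.69 and 2.86. Within each list 4H was the lower, and the 3 values of 4H all lay below the 3 values of the others pooled. Taken singly, 6H came closest, with medians of 2.72, 2.57 and 2.69. These were above 4H within each list, but across lists they overlapped the values of 4H, as did those of 2H and 3H. Strong regions were scarcer on 4H: 49 regions (12.6%) had a mean fold of at least 5 against 18.4% elsewhere, 11 (2.82%) of at least 10 against 7.90%, and 4 (1.03%) of at least 20 against 2.56%.

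At a given width the folds were close for regions under 20 kb, and in wider classes 4H was higher in some and lower in others. For regions of 5 to 10 kb the median fold was 2.21 ± 0.099 on 4H and 2.24 ± 0.11 on the others, and for 10 to 20 kb it was 2.71 ± 0.13 and 2.73 ± 0.14 (SD, n = 3 each). For 20 to 40 kb 4H was the higher in each list, at 3.95 ± 0.10 against 3.68 ± 0.078, and for 40 to 80 kb it was the lower in each list, at 3.71 ± 0.37 against 4.38 ± 0.069 (SD, n = 3 each). For 80 to 160 kb it was 4.39 ± 0.24 over 18 regions of 4H against 7.22 ± 0.067 over 213 regions. For 160 to 320 kb it was 8.70 ± 1.4 over 11 regions of 4H against 7.94 ± 0.26, a difference within the spread of the lists. In that class 4H was the higher in replicates 1 and 2 and the lower in replicate 3, at 7.22 against 7.64. For 320 kb or more it was 6.48 ± 1.2 over 6 regions of 4H against 11.8 ± 0.70. Across the 390 regions, width and mean fold had a Spearman's rho of 0.723, and across the 2847 regions of the other chromosomes 0.684. Both come from the same peaks, and no p-value is attached.

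The median fold of 4H was alike at both ends, and its gap to the other chromosomes changed along the span. In the first 10% of the span the median was 2.67 ± 0.11 on 4H and 3.26 ± 0.15 on the others (SD, n = 3 each), and a mean fold of at least 5 was reached by 10 of 89 regions (11.2%) of 4H against 30.7% elsewhere. From 10% to 25% the medians were 2.53 ± 0.051 on 4H and 2.66 ± 0.083 on the others. A mean fold of at least 5 was reached there by 2 of 39 regions (5.13%) of 4H against 13.2% elsewhere. In the middle, from 25% to 75% of the span, the medians were 2.57 ± 0.092 and 2.59 ± 0.061, and the shares with a mean fold of at least 5 were 10.0% and 10.3%. From 75% to 90% the medians were 2.69 ± 0.25 on 4H and 2.64 ± 0.091 elsewhere, a difference within the spread of the lists. In replicate 2 alone 4H was the lower, at 2.40 against 2.56. The shares there were 19.5% (8 of 41 regions) on 4H and 13.4% elsewhere. In the last 10% the medians were 2.65 ± 0.033 and 3.05 ± 0.093, and the shares were 18.5% and 24.9%. The highest mean fold there, 48.9, was above the highest of the other chromosomes at the same end, 36.8, whereas at the first end the maximum was 13.2 on 4H and 95.0 on the others.

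The 8 strongest regions, by mean rank of fold over the lists, lay mostly toward the last end: 7 of the 8 were in the last 20% of the span. Positions are 1-based and as given in the peak lists, and genes at them are not given because the build is not named. The first in rank spanned 375 kb from 609820898 to 610195804, near the last peak of the chromosome, with folds of 50.7, 45.0 and 50.2 in replicates 1, 2 and 3 and a mean of 48.7 ± 3.1 (SD, n = 3). The second spanned 213 kb from 560706993 to 560920410, with folds of 50.7, 46.7 and 49.5 and a mean of 48.9 ± 2.1 (SD, n = 3). These regions could not be told apart in fold, since their means differed by less than the spread of the lists.

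The third was also the widest region of 4H, 518 kb from 570352813 to 570870683. Its folds were 38.2, 27.1 and 46.9, and replicate 2, which covered it with a single peak, gave the lowest. Replicate 1 had 2 peaks there and replicate 3 had 6; whether the cutting of the domain bears on its fold was not tested. The fourth, 93.7 kb from 538301528 to 538395255, had folds of 25.1, 24.9 and 16.0. No other region of 4H reached a mean fold of 20.

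The other 4 had mean folds between 13.6 and 15.7. The region of 206 kb from 508394991 to 508600963 had folds of 12.5, 15.2 and 19.6, and the region of 112 kb from 605107209 to 605219173 had 12.9, 11.6 and 19.0. The region of 148 kb from 493978924 to 494126753 had 13.1, 14.6 and 13.2. Of the 8, only the region of 175 kb from 111051504 to 111226119 was outside the last 20% of the span, with folds of 12.5, 13.2 and 18.4. The ranges of these 4 regions overlapped, so their order is not resolved. The cut at 8 is not resolved either. A region of 70.6 kb from 15772387 to 15842943, at 2.59% of the span, ranked 10 with folds of 11.8, 12.5 and 15.1. It was named after its values were seen, and its folds overlap those of the region of 148 kb. Of the 11 regions of 4H with a mean fold of at least 10, 8 were in the last 25% of the span.

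The 8 widest regions made up 22.7% of the region length of 4H, and only 2 of them were also among the 8 strongest. After the region of 518 kb came 425 kb from 573767335 to 574192713, with folds of 9.02, 6.92 and 5.08, and 409 kb from 599827304 to 600236004, with folds of 5.08, 4.55 and 4.76. The latter was 1 peak in replicates 1 and 2 and 11 peaks in replicate 3, where they summed to 281 kb against 408 kb in replicate 1. The regions of 371 kb and 356 kb in the interior, at 38.4% and 42.4% of the span, had mean folds of 5.64 ± 0.92 and 5.36 ± 0.61 (SD, n = 3 each). The region of 256 kb from 290536528 to 290792856, at 47.6% of the span, had 10.8 ± 0.75, the highest fold between 25% and 75%. The eighth, 254 kb from 544607691 to 544861658, had 8.70 ± 1.4 (SD, n = 3). Wide regions of 4H were therefore found both near the last end and in the interior, and none of the 8 lay in the first 25% of the span.

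**Figure D5:**
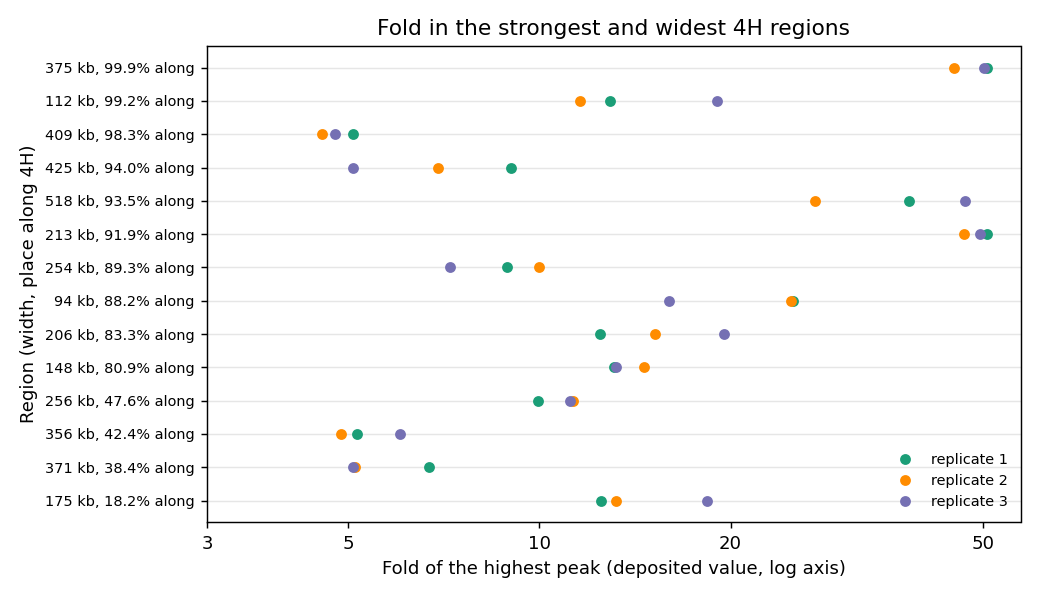
Fold of the highest peak (x axis, log scale) in each replicate for the 14 regions of 4H that are among the 8 strongest or the 8 widest, ordered along the chromosome from bottom to top and labelled by width and place. The highest mean folds, 48.9 and 48.7, are those of 2 regions in the last 10% of the span, where the widest region also reaches 46.9 in replicate 3.

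The first region along 4H spanned 46.2 kb from position 700 to 46921, with folds of 5.92, 4.52 and 4.54. The last spanned 55.8 kb from 610275638 to 610331463, with folds of 6.48, 4.16 and 6.44. Regions found in all lists thus began within the first kb of the coordinates and ran up to the last peak.

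Between neighbouring regions the median distance was 856 kb, and 10% of the distances were above 3.84 Mb. The longest stretch without a region in all 3 lists ran for 12.5 Mb from 434694993 to 447220690. It was flanked by a region of 23.7 kb with a mean fold of 5.01 and one of 9.45 kb with a mean fold of 2.11. It was not free of peaks: 5 smaller regions lay in it, 2 of them in 2 lists and 3 in 1 list, summing to 42.3 kb with folds of at most 2.09. The second, of 10.1 Mb from 463036982 to 473143646, lay between a region of 130 kb with a mean fold of 3.31 and one of 23.1 kb with 2.52. The third, of 9.71 Mb from 396320620 to 406028268, lay between a region of 8.17 kb with a mean fold of 1.99 and one of 26.4 kb with 3.14. All 3 lay between the region at 64.9% and the region at 77.5% of the way along the span, away from its midpoint.

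Most regions consisted of 1 peak per list, while their extent varied between the lists. A single peak in every list made up 357 of the 390 regions (91.5%). The starts of a region differed by a median of 1.53 kb between the lists and the ends by 1.89 kb. Bases covered in all 3 lists were 76.8% of the summed region length. For a single region the median share was 69.6%, 88 of the 390 regions were below 50%, and 2 had no such base. A peak in every list is what the rule required, so presence in all lists is no measure of repeatability. The coefficient of variation of fold over the lists had a median of 10.9% (quartiles 6.90% and 15.7%). It was largest for a region of 111 kb from 31714123 to 31824863, with folds of 5.29, 7.07 and 3.64, for one of 11.9 kb from 529256272 to 529268176, with 3.65, 1.87 and 2.96, and for one of 9.60 kb from 300244901 to 300254503, with 2.22, 3.34 and 1.85. Replicate 2 gave the lowest fold in 199 of the 390 regions.

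The fold ranked the regions of 4H alike in the 3 lists, somewhat less closely than elsewhere. Spearman's rho with replicate 1 was 0.762 for replicate 2 and 0.813 for replicate 3, and between replicates 2 and 3 it was 0.789. Over the 2847 regions of the other chromosomes it was 0.835, 0.844 and 0.859. Regions of a chromosome are not independent replicates, and the highest fold in any list was 50.7 on 4H and 101 elsewhere.

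Just outside the rule lay the 180 regions of 4H with a peak in 2 lists. Peaks in them had a median fold of 2.02 ± 0.14 and a median width of 5.31 ± 0.95 kb, against 2.55 ± 0.083 and 10.2 ± 0.92 kb for peaks in the 390 regions (SD, n = 3 each). The weakest region inside the rule spanned 11.2 kb from 604599730 to 604610900, with folds of 1.39, 1.41 and 1.44. Of the 855 merged regions on 4H, 45.6% were in all 3 lists, 21.1% in 2 and 33.3% in 1, against 49.2%, 17.4% and 33.4% on the other chromosomes. The regions in all 3 lists held 79.1% of the merged length on 4H and 87.0% elsewhere.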

How the data were processed

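Per the labels' protocols, cross-linked endosperm chromatin was sonicated, pooled and precipitated with an antibody against H3K27me3, and 150-bp paired-end reads were sequenced. HISAT2 2.1.0, GATK and MACS2 are named in the submitters' processing notes without their roles; settings and genome build are not given in the sources used here. The deposited files are 9-column broadPeak lists, 1 per ChIP library. Column 7 is the authors' fold of a peak, a ratio over background. The deposited −log10 q values served only as a threshold, and no result given here uses the −log10 p values. The deposited score, 10 times the −log10 q, was not used. Lists that give no reads leave depth unknown, and a shallower library calls fewer weak peaks.

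Peaks were merged with Python 3.11.15 and pandas 2.3.3; the merging gave the same regions as bedtools 2.31.1 and was tested on simulated data. The largest peak end stood for chromosome length, and unplaced sequence was left out of comparisons. The named regions are the 8 strongest, the 8 widest, the first and last, those beside the 3 longest gaps and the 3 most variable in fold, plus the 5 most covered windows. Regions and rules were chosen with earlier results of these data known.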

Additional observations from a re-analysis of the deposited data

How the results depend on the processing

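No paired analysis was possible because the input libraries that share replicate numbers with the ChIP libraries have no peak list of their own, so there is no second group. Leaving out regions of 80 kb or more, and leaving 7H out of the comparison, were chosen after seeing the data. Across 9 results and 85 alternatives, 48 values stayed within the SD over the lists (for the count, within 1.5 times) and 37 moved; the cause was not tested. 4H remained lowest of the 7 chromosomes in coverage, density and mean width under all 11 alternatives that change the regions, and lowest at its first end under 10 of them, the exception being without regions of 80 kb or more.

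With a −log10 q of at least 5, 4H had 125 regions covering 1.42%, with a coverage ratio of 0.468, a density ratio of 0.656, a width ratio of 0.713, a width share of 44.5% and 42.3% of the length in the first 50% of the span. With a fold of at least 3 these were 101 regions, 1.33%, 0.473, 0.629, 0.751, 38.2% and 43.2%. With a peak in at least 2 of 3 lists, coverage was 2.47%, its ratio 0.561, the density ratio 0.868, the width share 75.6% and the first 50% held 49.3%. With only bases covered by all 3 lists, coverage was 1.64%, its ratio 0.495, the width ratio 0.626 and the first 50% held 44.5%. Without regions of 1 Mb or more, the coverage ratio was 0.575 and the width ratio 0.713. Without regions of 80 kb or more, coverage was 1.05%, its ratio 0.755, the density ratio 0.856, the width ratio 0.882, the width share 44.6% and the first 50% held 56.6%. With 7H left out, the coverage ratio was 0.563 and the width ratio 0.682. In place of the midpoint, the outer 10% at each end gave the first end 39.4% of the length of both ends, and the outer 25% gave 40.5%.

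Leaving out each replicate in turn gave 414 to 523 regions, a covered share of 2.07% to 2.35%, a coverage ratio of 0.521 to 0.553, a density ratio of 0.815 to 0.851, a width ratio of 0.637 to 0.650, a width share of 68.4% to 72.7% and 46.3% to 48.9% of the length in the first 50%. Depth is unknown, so how many weak regions of 4H each list missed could not be estimated.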
